A study of Macaca mulatta with 39 samples.

Results

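The genes described here are the HOX genes, the TALE homeobox genes that act with HOX proteins, and the CDX genes, in cultured rhesus macaque cells. They were found by symbol in the annotation of the array platform, which named 36 of them among the 14132 genes measured. There were 26 HOX genes, 7 TALE cofactors (MEIS1, MEIS2, MEIS3, PBX2, PBX3, PKNOX2 and TGIF1) and 3 CDX genes (CDX1, CDX2 and CDX4). The HOX genes comprised 9 of the HOXA cluster on rhesus chromosome 3, 7 of HOXB on chromosome 16, 4 of HOXC on chromosome 11 and 6 of HOXD on chromosome 12. By paralogue number, 6 were anterior (groups 1 to 3), 9 central (groups 4 to 8) and 11 posterior (groups 9 to 13). Each gene was read from its brightest probe set, and 14 of the 36 had others, which are set beside it where they differ.

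HOX genes encode homeodomain transcription factors that give cells their position along the head-to-tail axis and along the limbs. Their order along each chromosomal cluster matches the order of the body levels at which they are switched on, and fibroblasts in culture are known to keep the HOX pattern of the body site they came from. PBX, MEIS and PKNOX proteins bind DNA together with HOX proteins and with each other, TGIF1 is a TALE repressor that limits TGF-beta and retinoid responses, and CDX proteins activate HOX genes in the early embryo.

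RNA came from 13 cell sources. There were 2 embryonic stem cell (ESC) lines, the female line C3806 and the male line C3106. Fibroblasts were grown from teratomas that formed after these lines were injected into immune-compromised mice, 3 cultures from C3806 (TA38, TB38 and TC38) and 5 from C3106 (TA31 to TE31). Skin fibroblasts (M032, M088 and M106p1) came from the macaques whose gametes made the lines. Each ESC line is 1 genotype, and each teratoma culture shares the genotype of its line. The sources used here do not give ages, skin sites, passages or the content of host mouse cells. The labels describe the 3 arrays per source as biological triplicates without saying whether they were separate cultures.

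The values are log2 signals, with array medians between 6.25 and 6.48, and no detection calls were used. The arrays labelled C3806c, M106p1f and TB31c stood apart from the other arrays of their sources and were left out, which left 36 arrays: 5 ESC, 23 teratoma and 8 skin. Groups of arrays are said below to overlap or lie apart over these 36 only. Leaving out arrays that stood apart makes such groups more distinct. The mean of 8 ESC markers was 11.61 in C3806 and 11.50 in C3106, between 5.22 and 5.97 in the teratoma cultures and between 5.04 and 5.13 in skin. The mean of 7 fibroblast markers was 7.01 in C3806 and 6.93 in C3106, and between 11.37 and 11.90 elsewhere. The mean of 7 embryonic skeletal muscle markers was 9.35 in TB31 and 9.18 in TD31, between 5.28 and 7.47 in the other teratoma cultures, and 6.02 or less in skin. Means over keratinocyte, leukocyte, endothelial and cartilage or bone markers lay within 6.15 to 6.57, 5.93 to 6.33, 5.82 to 6.62 and 6.68 to 7.49 over all 13 sources. These means hide genes that varied widely and in opposite directions. RUNX2 was 4.19 in C3806 and 4.49 in C3106, against 7.89 to 10.46 elsewhere. SPP1 was 11.47 and 13.27 in these lines, against 5.47 to 10.58 elsewhere. The endothelial marker TEK ran from 4.89 in C3806 to 9.95 in TD31. The gap between 3′ and 5′ actin probe sets, which widens as RNA degrades, was 0.26 to 3.89 on ESC arrays (median 0.74), 0.02 to 0.78 on teratoma arrays and 0.05 to 0.59 on skin arrays.

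Most HOX and TALE genes varied between sources more widely than the median gene. The range of the 13 source means had a median of 1.69 log2 units over the 26 HOX genes, 2.46 over the 7 TALE genes and 0.29 over the 3 CDX genes, against 0.82 over all genes. Of the 36 genes 12, or 33.3%, ranged over less than 1 unit, as did 58.6% of all genes. These were HOXA6, HOXB1, HOXB3, HOXB8, HOXB13, HOXC12, HOXC13, MEIS3, PBX2 and all 3 CDX genes, with ranges from 0.14 for HOXB1 to 0.75 for MEIS3. In bulk RNA, fewer cells expressing a gene and less RNA per cell cannot be told apart.

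**Figure D1:**
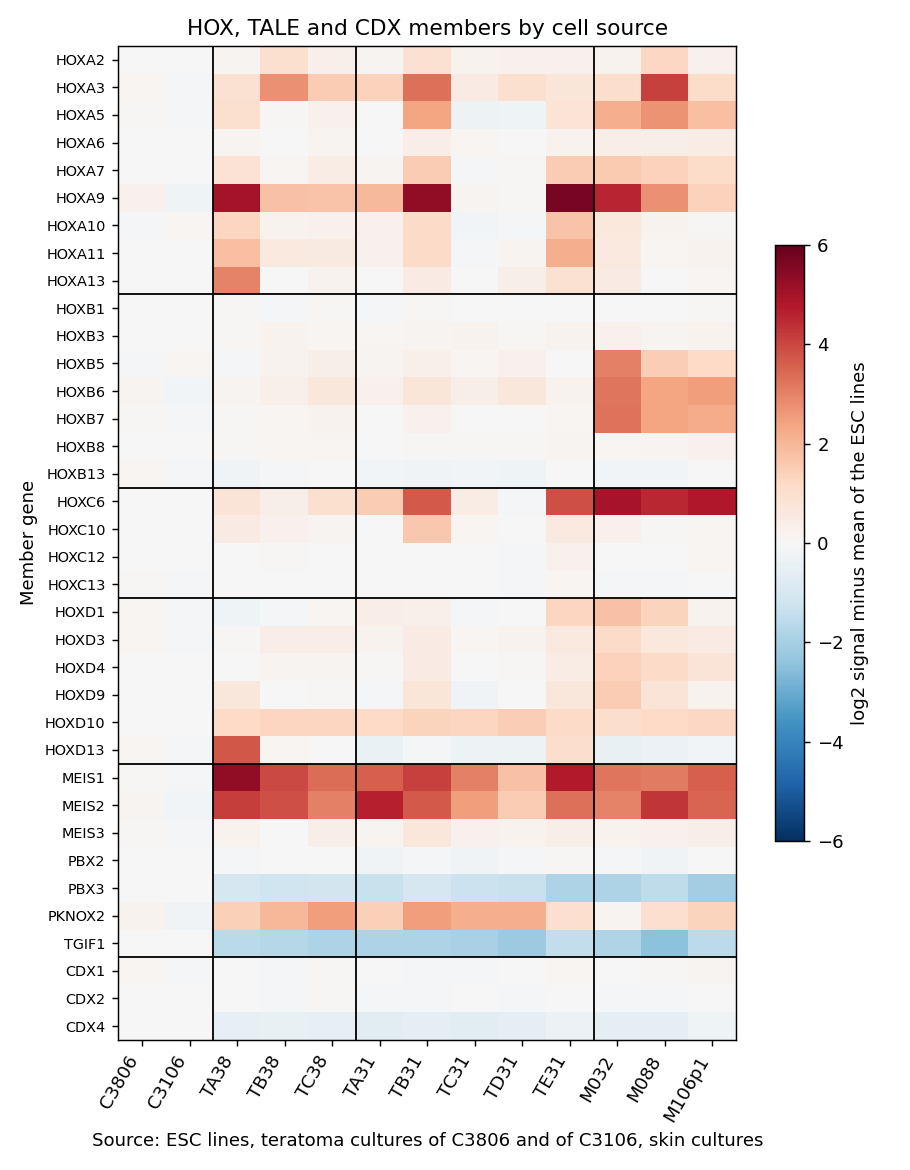
Mean log2 signal of each of the 36 genes (rows, by cluster and paralogue number, then TALE and CDX) in each of the 13 cell sources (columns), shown as the difference from the mean of both ESC lines; red is higher and blue lower than in ESCs. HOXB5, HOXB6 and HOXB7 are red in the 3 skin columns, PBX3 and TGIF1 are blue in every fibroblast column, and HOXA9, at means of 4.28 to 9.93 in the teratoma cultures, runs from near white to dark red.

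The first question was how these genes differed between ESCs and the fibroblasts grown from their own teratomas. A gene was called at a limma p under 0.05 after Benjamini-Hochberg adjustment across the 14132 genes, together with a log2 difference of 1 or more in either direction. Each ESC line was a class of 1 source, so the errors came from the spread of teratoma and skin cultures and held no spread of ESCs. In ESCs against teratoma cultures, PBX3 and TGIF1 were higher and HOXD10, MEIS1, MEIS2 and PKNOX2 lower. Thus 2 of 36 were called higher where 6.28% of all genes were, and 4 were called lower where 8.18% of all genes were. Among the 7 TALE genes 5 were called, and among the 26 HOX genes 1. The median difference was −0.25 over the 36 genes and 0.02 over all genes.

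Against skin fibroblasts, ESCs had 2 of the 36 genes higher, PBX3 and TGIF1, with 10.2% of all genes called higher. They had 9 lower, HOXA5, HOXB5, HOXB6, HOXB7, HOXC6, HOXD4, HOXD10, MEIS1 and MEIS2, with 9.77% of all genes called lower. Of the 9 central HOX genes 6 were called lower and their median difference was −1.90. None of the 6 anterior HOX genes and 1 of the 11 posterior ones, HOXD10, was called. Among the anterior genes HOXD3 had an adjusted p of 0.0137 with a difference of −0.75, under the fold limit.

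In teratoma cultures against skin fibroblasts, HOXB5, HOXB6, HOXB7 and HOXC6 were lower and no gene of the 36 was higher. The 4 lower ones stand beside 0.545% of all genes called lower, and the count of 0 beside 0.658% called higher. At an unadjusted p under 0.05, 11 of the 36 passed, beside 22.9% of all genes. All 4 belong to the central paralogue groups, whose 9 genes had a median difference of −1.73.

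HOXB5, HOXB6 and HOXB7 set skin apart from every other source. HOXB5 read 5.96 and 6.34 on the C3806 arrays, 6.50, 6.52 and 6.07 on the C3106 arrays, 6.11 to 6.72 on teratoma arrays (median 6.39) and 7.41 to 9.40 on skin arrays (median 7.80). Over the kept arrays, ESC and teratoma arrays overlapped, and no skin array fell among them. Of the arrays left out, M106p1f, labelled as skin, read 6.43, within the teratoma range. TB31c, labelled as teratoma, read 7.41, at the lower end of the skin range. The difference was −1.90 (SE 0.42, adjusted p = 0.00423) in ESCs against skin and −1.73 (SE 0.31, adjusted p = 0.0223) in teratoma cultures against skin. With all 39 arrays the second difference was −1.59, at an adjusted p of 0.0752.

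HOXB6 read 6.81 and 6.62 in C3806 and 6.45, 6.59 and 6.21 in C3106, 6.57 to 7.44 on teratoma arrays (median 6.95) and 8.90 to 9.90 on skin arrays (median 9.09). Skin again lay apart from the rest. It differed by −2.71 (SE 0.26, adjusted p = 2.59e-05) in ESCs against skin and by −2.29 (SE 0.20, adjusted p = 0.000606) in teratoma cultures against skin. The other probe set of HOXB6 did not share this, with differences of 0.07 and 0.04.

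HOXB7 varied little outside skin. It read 6.05 and 6.30 in C3806, 6.08, 6.04 and 5.97 in C3106, 5.95 to 6.41 on teratoma arrays (median 6.17) and 8.22 to 9.48 on skin arrays (median 8.57). Both differences from skin passed the test, at −2.63 in ESCs (SE 0.25, adjusted p = 2.09e-05) and −2.52 in teratoma cultures (SE 0.18, adjusted p = 0.000293). In the same cluster HOXB1, HOXB3, HOXB8 and HOXB13 ranged over 0.14, 0.28, 0.28 and 0.36 log2 units across all 13 sources. The skin cultures thus stood high at HOXB5, HOXB6 and HOXB7, and not at the measured neighbours on either side, HOXB3 and HOXB8, on their brightest probe sets. A dimmer HOXB8 probe set averaged 5.47 in skin, 5.04 in ESC lines, and 4.99 and 5.10 in C3106 and C3806 teratoma cultures. On it M106p1 (5.14) lay below TB38 (5.23). As HOXB6 had a flat probe set too, flat probe sets do not show that HOXB3 and HOXB8 were unchanged.

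HOXC6, a central gene of the HOXC cluster, had the largest difference between ESCs and skin of the 36 genes. It read 6.41 and 6.71 in C3806 and 6.84, 6.65 and 6.24 in C3106, 6.38 to 10.62 on teratoma arrays (median 7.39) and 11 to 11.57 on skin arrays (median 11.35). Skin overlapped with neither group, while the teratoma arrays ran from the ESC level to just below skin. ESCs differed from skin by −4.74 (SE 1.06, adjusted p = 0.00467) and teratoma cultures from skin by −3.46 (SE 0.79, adjusted p = 0.0442). The second call depended on single cultures. Without any 1 of the 9 cultures other than TB31 and TE31 the adjusted p lay between 0.0503 and 0.128, with differences of −3.21 to −3.58. With all 39 arrays it was −2.88 at an adjusted p of 0.134, and over all 22 alternatives the adjusted p ran from 4.98e-07 to 0.903.

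HOXD4, the central gene of the HOXD cluster on these arrays, read 6.30 and 6.15 in C3806, 6.26, 6.26 and 6.14 in C3106, 6.12 to 6.75 on teratoma arrays (median 6.34) and 6.96 to 7.66 on skin arrays (median 7.38). Over the kept arrays its groups did not overlap between skin and the other cells. The left-out array M106p1f, labelled as skin, read 6.32, within the teratoma range. ESCs differed from skin by −1.09 (SE 0.20, adjusted p = 0.00149), which became −0.96 without skin culture M032 and −0.99 with all 39 arrays, both under the fold limit. In teratoma cultures against skin the difference was −0.93 (SE 0.15, adjusted p = 0.0144), under the fold limit.

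HOXA5, a central gene of the HOXA cluster, read 6.47 and 6.59 in C3806, 6.43, 6.44 and 6.33 in C3106, 6.0 to 8.88 on teratoma arrays (median 6.70) and 8.09 to 9.41 on skin arrays (median 8.70). The teratoma arrays within the skin range were those of TB31. ESCs differed from skin by −2.23 (SE 0.71, adjusted p = 0.0273). That call was lost without M032, without M088, without either ESC line and with all 39 arrays, at adjusted p values between 0.0523 and 0.088 and differences of −1.93 to −2.30. In teratoma cultures against skin HOXA5 differed by −1.76 with an adjusted p of 0.0862. Of the other central HOXA genes, HOXA7 differed by −1.34 in ESCs against skin (adjusted p = 0.054) and HOXA6 by −0.40 (adjusted p = 0.0194).

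**Figure D2:**
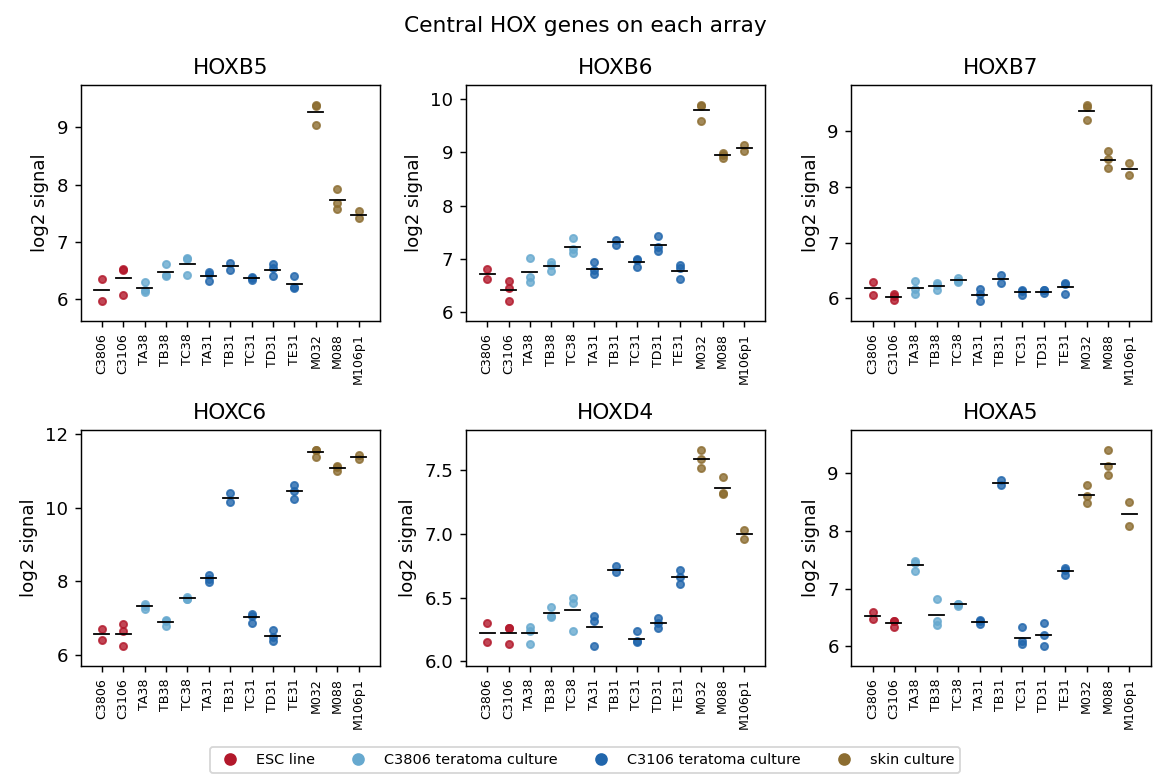
Log2 signal of 6 central HOX genes on each of the 36 arrays (points) with the mean of each source (bars), by source along the x axis; red marks ESC lines, light blue C3806 teratoma cultures, dark blue C3106 teratoma cultures and brown skin cultures. For HOXB5, HOXB6 and HOXB7 the skin arrays lie above all others, while for HOXC6 the cultures TB31 and TE31, at means of 10.27 and 10.44, come close to skin.

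HOXD10 was the single HOX gene called in ESCs against teratoma cultures. It read 7.20 and 8.47 in C3806, 7.86, 8.18 and 7.17 in C3106, 8.87 to 9.28 on teratoma arrays (median 9.06) and 8.77 to 9.09 on skin arrays (median 8.97). All ESC arrays were lower than all others, yet they spread over more than 1 log2 unit within a line. This spread (SD 0.90 over the C3806 arrays and 0.51 over the C3106 arrays) does not enter the SE or p values that follow. The difference was −1.28 against teratoma cultures (SE 0.09, adjusted p = 3.04e-06) and −1.16 against skin (SE 0.10, adjusted p = 1.67e-05). Without C3806a, the ESC array with the actin gap of 3.89, it was −0.96 and −0.84, under the fold limit in both, and with all 39 arrays the difference from skin was −1.0, just under that limit. The part of RNA quality in this result was not tested further.

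The other probe sets of HOXD10 gave another pattern. The second brightest read 5.82 in C3806 and 5.81 in C3106, 10.76 in TA38, 7.02 in TB38, 6.58 in TC38, 5.73 in TA31, 8.89 in TB31, 5.94 in TC31, 5.71 in TD31, 10.62 in TE31 and 5.83 to 5.92 in skin. TA38, TE31 and TB31 stood high, and the remaining sources lay near the ESC level. The third probe set was also highest in TE31 (8.55), TA38 (8.39) and TB31 (6.56). On the second brightest, HOXD10 was not called in ESCs against teratoma cultures (difference −1.94, adjusted p = 0.329) or against skin (−0.06, adjusted p = 0.984), and over the 22 alternatives the adjusted p ran from 8.71e-07 to 0.329 and from 1.67e-05 to 0.984 in the 2 comparisons.

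Among the TALE cofactors, MEIS1 and MEIS2 were the genes with the lowest ESC signal relative to the fibroblasts. MEIS1 read 5.07 and 4.87 in C3806 and 5.09, 4.56 and 4.96 in C3106, 6.48 to 10.28 on teratoma arrays (median 8.52) and 7.94 to 8.50 on skin arrays (median 8.17). No fibroblast array came as low as an ESC array. ESCs differed by −3.82 from teratoma cultures (SE 0.69, adjusted p = 0.00152) and by −3.29 from skin (SE 0.80, adjusted p = 0.00717). On its second probe set the differences were −1.66, which was called, and −1.28, at an adjusted p of 0.131, the highest of the 22 alternatives of the comparison with skin.

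MEIS2, which pairs with PBX and HOX proteins as MEIS1 does, read 6.12 and 5.75 in C3806 and 5.80, 5.24 and 5.67 in C3106, 6.99 to 10.53 on teratoma arrays (median 9.21) and 8.63 to 10.10 on skin arrays (median 9.25). ESC arrays lay apart from all fibroblast arrays. The difference was −3.40 against teratoma cultures (SE 0.68, adjusted p = 0.00275) and −3.59 against skin (SE 0.78, adjusted p = 0.00398). MEIS3 differed by −0.27 in both comparisons and was not called.

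PBX3, a direct HOX partner, ran the other way. It read 10.67 and 11.39 in C3806 and 11.29, 11.39 and 10.58 in C3106, 9.10 to 10.07 on teratoma arrays (median 9.84) and 8.96 to 9.58 on skin arrays (median 9.30). All ESC arrays were higher than all fibroblast arrays. The spread of ESC arrays within a line (SD 0.51 in C3806 and 0.45 in C3106) does not enter the SE or p values that follow. ESCs differed by 1.24 from teratoma cultures (SE 0.19, adjusted p = 0.000526) and by 1.81 from skin (SE 0.22, adjusted p = 0.000105). The other PBX3 probe sets gave differences of 0.21 and 0.19 against teratoma cultures and 0.17 each against skin, so the call held for the brightest probe set alone. PBX2 ranged over 0.32 units in all.

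TGIF1 read 11.43 and 11.24 in C3806 and 11.22, 11.43 and 11.47 in C3106, 9.07 to 10.02 on teratoma arrays (median 9.53) and 8.83 to 9.86 on skin arrays (median 9.55). ESC arrays were again higher than every fibroblast array, whose 2 groups overlapped. The difference was 1.79 against teratoma cultures (SE 0.22, adjusted p = 0.000115) and 1.93 against skin (SE 0.25, adjusted p = 0.000162).

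PKNOX2, a TALE protein related to MEIS, was the cofactor that placed teratoma cultures apart from ESCs with skin between. It read 7.17 and 6.77 in C3806 and 6.65, 6.71 and 6.27 in C3106, 7.62 to 9.53 on teratoma arrays (median 8.69) and 6.76 to 8.31 on skin arrays (median 7.68). Skin overlapped with both other groups, and ESC and teratoma arrays did not overlap. ESCs differed from teratoma cultures by −1.92 (SE 0.42, adjusted p = 0.00462). The difference was −0.83 in ESCs against skin (adjusted p = 0.201) and 1.09 in teratoma cultures against skin (adjusted p = 0.112), neither called.

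**Figure D3:**
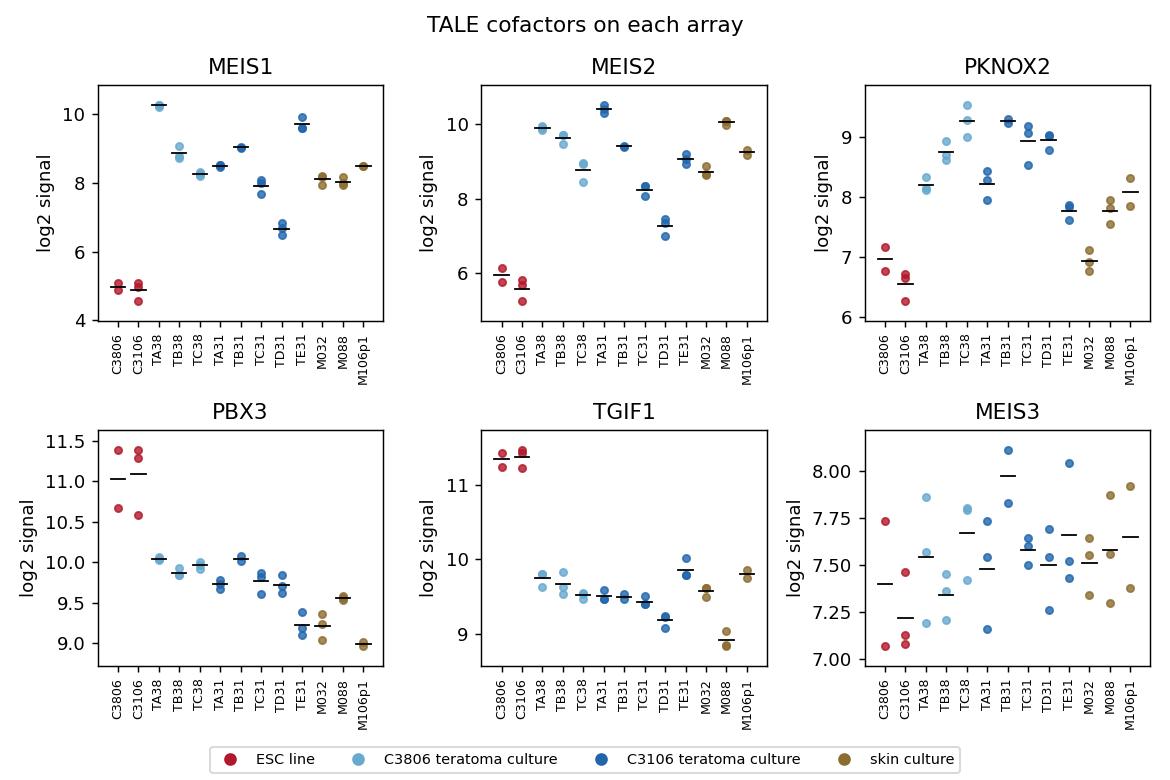
Log2 signal of 6 TALE cofactors on each of the 36 arrays (points) with the mean of each source (bars); red marks ESC lines, light blue C3806 teratoma cultures, dark blue C3106 teratoma cultures and brown skin cultures, and each panel has its own y axis. MEIS1 and MEIS2 are lower, and PBX3 and TGIF1 higher, in both ESC lines than in every fibroblast source, while MEIS3 overlaps throughout.

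CDX1, CDX2 and CDX4 were not called in any comparison. CDX2 averaged 5.99 ± 0.06 in ESC lines (SD, n = 2), 5.95 ± 0.06 in teratoma cultures (n = 8) and 5.93 ± 0.09 in skin cultures (n = 3), and CDX1 ranged over 0.29 units. CDX4 averaged 4.90 ± 0.05 in ESC lines, 4.37 ± 0.10 in teratoma cultures and 4.43 ± 0.16 in skin. CDX4 differed by 0.52 from teratoma cultures (SE 0.10, adjusted p = 0.00183) and by 0.46 from skin (SE 0.11, adjusted p = 0.00677), under the fold limit in both.

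The teratoma cultures of the lines were compared next. In C3806 teratoma cultures against C3106 teratoma cultures 0 of the 36 genes were called by limma, beside 0.0425% of all genes, and 0 had an unadjusted p under 0.05, beside 4.49%. The interaction, which asks whether ESCs and their teratoma cultures differ by unequal amounts in the lines, gave 0 called and 0 at an unadjusted p under 0.05, beside 0.0566% and 5.29% of all genes. In the ESC line C3806 against C3106, a fit that sees only the spread between arrays, 0 were called, beside 1.08% of all genes, and 8 had an unadjusted p under 0.05, beside 23.4% of all genes. With 3 and 5 cultures these tests show only that no difference was found.

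Within a line the teratoma cultures differed widely. Tested against the spread between arrays of a culture, 9 of the 36 genes were called among the 3 C3806 cultures, beside 5.09% of all genes. Among the 5 C3106 cultures 13 were called, beside 11.6% of all genes. HOXA3, HOXA9, HOXA10, HOXA11, HOXD13, MEIS1, MEIS2 and PKNOX2 were called in both lines. HOXA13 was the further gene of the C3806 cultures, and HOXA5, HOXA7, HOXC6, HOXC10 and HOXD1 were further genes of the C3106 cultures. HOXB was the cluster with no gene called among the cultures of either line. HOXD10 was not called on its brightest probe set. Its second read 10.76 in TA38, 7.02 in TB38 and 6.58 in TC38, and from 5.71 in TD31 to 10.62 in TE31. The HOXA3 calls rested on its brightest probe set, since the second ranged over 0.07 among the C3806 cultures (adjusted p = 0.828) and 0.15 among the C3106 cultures (0.468). HOXC6 likewise ranged over 0.27 among the C3106 cultures on its second probe set (adjusted p = 0.159). Over the mean of all its probe sets HOXA3 ranged over 0.91 among the C3806 cultures. HOXA11 among the C3806 cultures had 0.60 on its second probe set and 0.91 over the mean, and HOXD13 among the C3106 cultures 0.63 and 0.87, all under the fold limit. Some C3806 calls sat at the fold limit: HOXA10 had a range of 0.99 without the array TA38a, and MEIS2 and PKNOX2 had 0.96 and 0.94 without TC38b. With all 39 arrays PKNOX2 lost its call in both lines (adjusted p = 0.187 and 0.0763) and MEIS2 in the C3806 cultures (0.204). Because arrays of a culture may share cells, these p values say nothing of how teratomas vary in general.

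On the brightest probe sets HOXA9, a posterior gene active in limb and blood development, had the widest range over the teratoma cultures, 5.65 log2 units. The second probe set of HOXA10 ran more widely, from 3.88 in TD31 to 10.06 in TE31. HOXA9 means were 9.23, 5.97 and 5.96 in TA38, TB38 and TC38, and 6.19, 9.54, 4.39, 4.28 and 9.93 in TA31, TB31, TC31, TD31 and TE31. The ESC lines C3806 and C3106 had 4.48 and 3.98, and the skin cultures M032, M088 and M106p1 had 8.78, 6.97 and 5.60. TC31 and TD31 lay at the ESC level, while TE31, TB31 and TA38 lay above the brightest skin culture. ESC arrays read 4.52 and 4.43 in C3806 and 3.92, 3.86 and 4.14 in C3106, teratoma arrays 3.92 to 10.02 and skin arrays 5.39 to 8.85. The mean differences of −2.73 from teratoma cultures (adjusted p = 0.224) and −2.89 from skin (adjusted p = 0.253) were within the spread of the cultures. Among the C3806 cultures the range was 3.26 (adjusted p = 6.92e-18) and among the C3106 cultures 5.65 (adjusted p = 2.73e-24).

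HOXD13, the last gene of its cluster and a gene of digits and genitalia, was bright in a single culture. Its means were 10.04, 6.44 and 6.34 in TA38, TB38 and TC38, and 5.90, 6.23, 6.0, 6.01 and 7.38 in TA31 to TE31. The ESC lines C3806 and C3106 had 6.46 and 6.18, and skin had 5.87, 5.99 and 6.14 in M032, M088 and M106p1. Only TA38 and TE31 exceeded the ESC lines and skin. The arrays of TA38 read 9.97, 10.19 and 9.95, and the range among the C3806 cultures was 3.70 (adjusted p = 1.87e-20). The other probe sets were also highest in TA38, at 8.01 and 6.32.

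HOXA13, its paralogue at the end of the HOXA cluster, was high in the same culture. Its means were 6.50, 3.56 and 3.73 in TA38, TB38 and TC38, and 3.48, 4.0, 3.57, 3.88 and 4.45 in TA31 to TE31. The ESC lines C3806 and C3106 had 3.56 and 3.49, and skin had 4.02, 3.55 and 3.63 in M032, M088 and M106p1. The arrays of TA38 read 6.53, 6.42 and 6.56, with no other array above 4.54. Its range among the C3806 cultures was 2.94 (adjusted p = 6.91e-18).

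HOXC6 ranged over 3.92 units among the teratoma cultures, at 7.32, 6.90 and 7.54 in TA38, TB38 and TC38 and 8.08, 10.27, 7.02, 6.52 and 10.44 in TA31 to TE31. MEIS1 followed at 3.58, with means of 10.26, 8.86 and 8.26 in TA38, TB38 and TC38 and 8.49, 9.04, 7.92, 6.67 and 9.70 in TA31 to TE31. MEIS2 ranged over 3.16, with 9.89, 9.63 and 8.77 in TA38, TB38 and TC38 and 10.42, 9.41, 8.24, 7.26 and 9.07 in TA31 to TE31. TD31 was the lowest teratoma culture for all 3 genes, though for MEIS1 and MEIS2 it stayed above both ESC lines. HOXA3, an anterior gene of pharyngeal development, had its own order, with 8.22 in TB38 and 8.78 in TB31 as the highest and 5.94 in TC31 as the lowest.

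**Figure D4:**
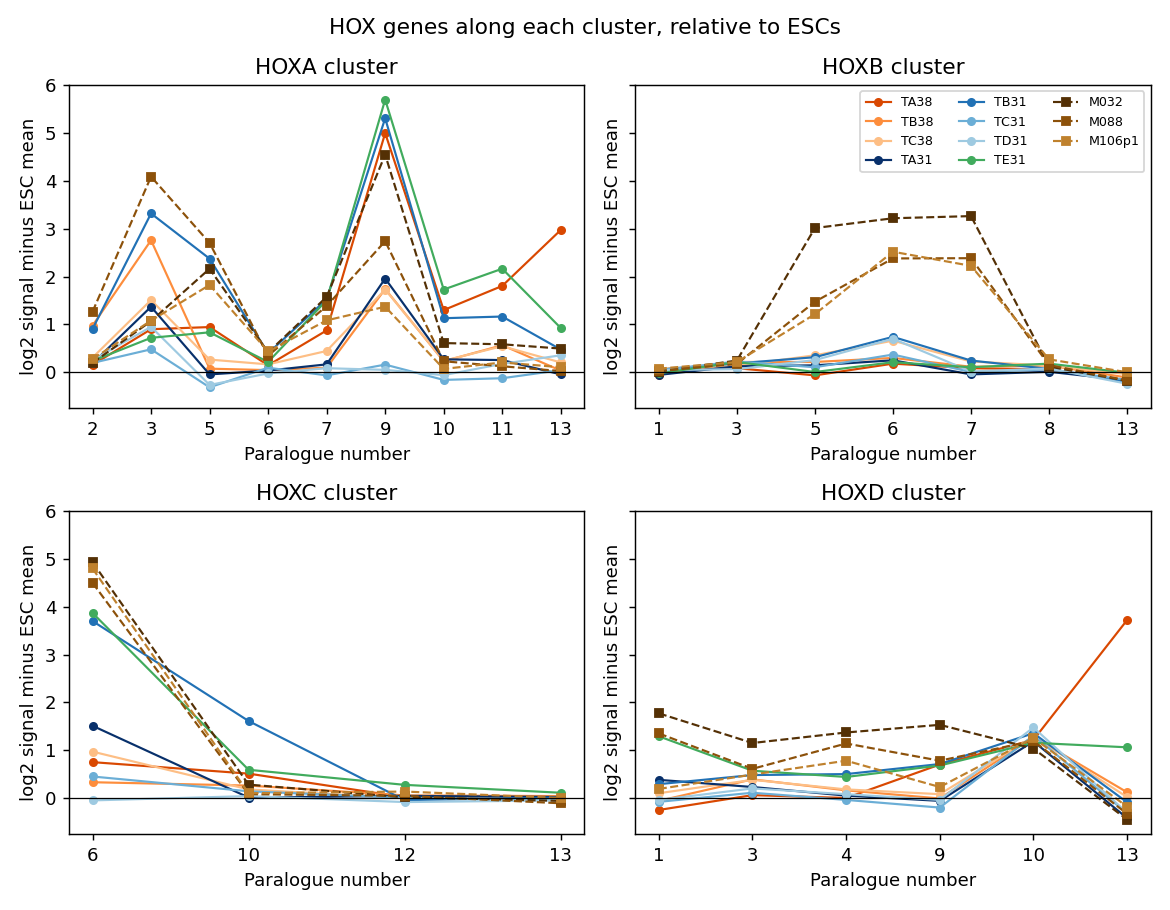
Mean log2 signal minus the mean of both ESC lines (y axis) along the measured paralogues of each HOX cluster (x axis, paralogue number) in the 8 teratoma cultures (solid lines) and the 3 skin cultures (dashed lines). Each gene is drawn from its brightest probe set. On these, the HOXA profiles of TA38, TB31 and TE31 peak at HOXA9, and TA38 rises again at HOXA13 and HOXD13. The second HOXA10 probe set, not drawn here, rose further over its ESC mean of 3.94, to 9.73, 9.60 and 10.06 in these cultures. In HOXB the dashed skin lines leave 0 at HOXB5 to HOXB7 while the solid lines stay near 0.

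Each teratoma culture was then set against the mean of the skin cultures, again with the spread between arrays as the error. The spread between skin cultures did not enter that error. Counts of genes higher and lower were 5 and 8 in TA38 (3.23% and 1.51% of all genes), 1 and 8 in TB38 (3.04% and 3.18%), and 1 and 7 in TC38 (3.52% and 3.11%). They were 1 and 7 in TA31 (3.62% and 2.43%), 4 and 4 in TB31 (3.78% and 2.53%), 1 and 12 in TC31 (3.32% and 2.38%), 1 and 12 in TD31 (4.44% and 3.51%), and 5 and 5 in TE31 (1.33% and 1.18%). These 8 comparisons share the skin arrays, so they are not independent of each other.

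HOXB5, HOXB6 and HOXB7 were called lower than skin in 8 of 8 cultures, with differences of −1.97 to −1.54, −2.52 to −1.96 and −2.67 to −2.38. On its second probe set HOXB6 differed by −0.12 to 0.22 and was called in none of the 8. Over the mean of its probe sets HOXB6 in TC38 differed by −0.97, under the fold limit. HOXC6 was called lower in 7 of 8, from −4.80 in TD31 to −1.05 in TB31, and TE31 had −0.88, under the fold limit. The HOXC6 call in TB31 was lost without the array TB31a, at −0.93, with all 39 arrays, at −0.16, and over the mean of its probe sets, at −0.59. On its second probe set HOXC6 differed by −0.06 to 0.09 in the 7 cultures, and no call was kept. HOXA5 was called lower in 7 cultures, and in TB31 it differed by 0.14. HOXD1 was called lower in 5 cultures, and HOXA7 and HOXD4 in 4 each. HOXD9 was called lower in TC31 alone, and there the call was lost without the array TC31b, at −0.97. Calls of HOXD4 in TA31 were lost without TA31b (−0.97) and in TD31 without TD31c (−0.99) or M088a (−1.0). The call of HOXD1 in TC38 was lost without TC38b (−1.0), M032b (−0.99), M088a (−0.97) or M106p1b (−0.97). With all 39 arrays HOXD4 in TA31 (−0.97) and TD31 (−0.94) and HOXD1 in TC38 (−0.97) were not called either.

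The posterior genes split the cultures. HOXA9 was higher than the skin mean in TA38 by 2.11, in TB31 by 2.42 and in TE31 by 2.81, and lower in TB38, TC38, TC31 and TD31 by −1.15, −1.16, −2.73 and −2.83. TB38 and TC38, at 5.97 and 5.96, still lay above the skin culture M106p1, at 5.60. In TE31 HOXA10 (1.42), HOXA11 (1.86) and HOXD13 (1.38) were higher as well, and in TA38 HOXA11 (1.5), HOXA13 (2.77) and HOXD13 (4.04). The second probe set of HOXA10 read 10.06 in TE31, 9.73 in TA38 and 9.60 in TB31. All lay above the skin cultures, at 4.81 to 7.90. HOXD13 in TE31 had 0.62 on its second probe set and 0.83 over the mean of its probe sets, and HOXA11 in TA38 had 0.58 on its second, all under the fold limit. HOXC10, a gene of the lumbar level, was higher in TB31 alone, by 1.46. With all 39 arrays, and so with TB31c, HOXC10 in TB31 differed by 0.99, HOXA9 by 1.37 (adjusted p = 0.0625) and HOXA3 by 0.61 (0.237), and none was called. HOXA9 lost its call in TB38 (−0.99, adjusted p = 0.105) and TC38 (−1.0, 0.0975) in the same way. HOXA3 was called in 5 cultures, higher in TB31 by 1.24 and lower in TA38, TC31, TD31 and TE31 by −1.18, −1.59, −1.13 and −1.36. The second probe set of HOXA3 ranged over 0.19 units in all, and none of these differences was called there. On the brightest, the skin mean held M088 at 9.55 with M032 at 6.53 and M106p1 at 6.54. TB31 (8.78) lay below M088, and TA38 (6.36) and TD31 (6.41) lay just below M032 and M106p1.

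Among the TALE genes, PKNOX2 was higher than skin in 5 cultures, TB38 (1.15), TC38 (1.67), TB31 (1.67), TC31 (1.33) and TD31 (1.35). In TB38 PKNOX2 had 0.97 on its second probe set and 0.92 over the mean of its probe sets, both under the fold limit. MEIS1 was higher in TA38 (2.04) and TE31 (1.49) and lower in TD31 (−1.54). In TD31 MEIS1 had −0.87 on its second probe set, under the fold limit. MEIS2 was higher in TA31 (1.07) and lower in TC31 (−1.10) and TD31 (−2.08), with the TC31 call lost with all 39 arrays (−0.88, adjusted p = 0.14). HOXA2, HOXA6, HOXB1, HOXB3, HOXB8, HOXB13, HOXC12, HOXC13, HOXD3, HOXD10, MEIS3, PBX2, PBX3, TGIF1 and the CDX genes were called in no culture on their brightest probe sets. For HOXD10 this depended on the probe set. Its second read 10.76 in TA38, 10.62 in TE31 and 8.89 in TB31, against 5.83 to 5.92 in skin. TB31 and TD31, where embryonic muscle markers were high, had HOXA9 means of 9.54 and 4.28. The mean of 6 neural markers was highest in TA38 (8.85), TA31 (8.67) and TB38 (8.41), and 7.82 in C3806 and 7.97 in C3106. Of these markers, SOX2, also an ESC marker, and PAX6 were highest in the same teratoma cultures. DCX was highest in TB31 (9.47) and was 5.62 in TB38. TUBB3, GFAP and ELAVL4 lay within 9.88 to 10.32, 7.28 to 8.00 and 6.27 to 6.47 in the teratoma cultures. The part of muscle or neural cells in these differences was not tested.

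The skin cultures differed among themselves too. By the spread between arrays, 9 of the 36 genes were called among the 3 cultures, beside 8.77% of all genes. M032 was highest for HOXA9 (8.78), HOXB5 (9.27), HOXB7 (9.37), HOXD1 (7.24) and HOXD9 (7.97). M088 was highest for HOXA2 (6.28), HOXA3 (9.55) and MEIS2 (10.06), and M106p1 for PKNOX2 (8.08). HOXA3 had a range of 3.02 (adjusted p = 5.01e-20) and HOXA9 one of 3.19 (adjusted p = 1.3e-15). For HOXA3, M088 at 9.41 to 9.75 lay apart from M032 and M106p1 at 6.45 to 6.62, which did not differ beyond the spread of their arrays. That call rested on the brightest probe set, since the second HOXA3 probe set ranged over 0.07 among skin cultures (adjusted p = 0.87). HOXC6, at 11.50, 11.07 and 11.37 in M032, M088 and M106p1, and HOXB6 were high in all 3 skin cultures. Some calls among skin cultures were lost when 1 array was left out: HOXA2 without M088a (0.97), HOXB7 without M032b (0.98) or M106p1e (0.93), and PKNOX2 without M106p1b (0.92). HOXB7 also lost its call with arrays centred on the median (0.93), and PKNOX2 over the mean of its probe sets (0.89).

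HOXA7, HOXA10 and HOXA11 varied with HOXA9 over the 8 teratoma cultures. Over these 8 means, Pearson's r was 0.98 between HOXA9 and HOXA10 (Spearman's rho 0.93), 0.93 between HOXA9 and HOXA11 (rho 0.88) and 0.94 between HOXA9 and HOXA7 (rho 0.88). Without the 2 cultures farthest from the median of HOXA9, TE31 and TB31, r was 0.99, 0.95 and 0.91. TA38 then stood alone at a HOXA9 mean of 9.23, with the rest at 4.28 to 6.19. How far these values rest on TA38 was not tested. HOXA13 and HOXD13 had r = 0.98 but rho 0.69, and without 2 cultures r was 0.18, so their relation rested on those cultures, TA38 among them. For HOXA9 and HOXC6 r was 0.80 and then 0.42, for HOXA2 and HOXA3 0.94 and then 0.45, and for MEIS1 and MEIS2 0.73 and then 0.29. HOXA3 and HOXA9 had r = 0.24. The 9 pairs are a description only, since the cultures share 2 genotypes and arrays share labelling and normalization.

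Several genes had probe sets that disagreed. The second probe set of HOXA10 ranged over 6.23 units across the 13 sources where the brightest ranged over 1.89. It read 4.05 and 3.83 in C3806 and C3106, 9.73, 5.88 and 5.94 in TA38, TB38 and TC38, and 6.22, 9.60, 4.18, 3.88 and 10.06 in TA31 to TE31, against 7.90, 6.15 and 4.81 in M032, M088 and M106p1. As for HOXA9, TE31, TA38 and TB31 were highest, and TC31 and TD31 lay near the ESC lines. HOXC6 had 4 probe sets, of which 1 ranged over 0.40 units while the dimmest pair differed by −1.54 and −1.35 in ESCs against skin. The second HOXB5 probe set differed by −1.86 in that comparison, close to the brightest. PKNOX2 differed by −2.11 and −0.94 from teratoma cultures on its other probe sets.

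**Figure D5:**
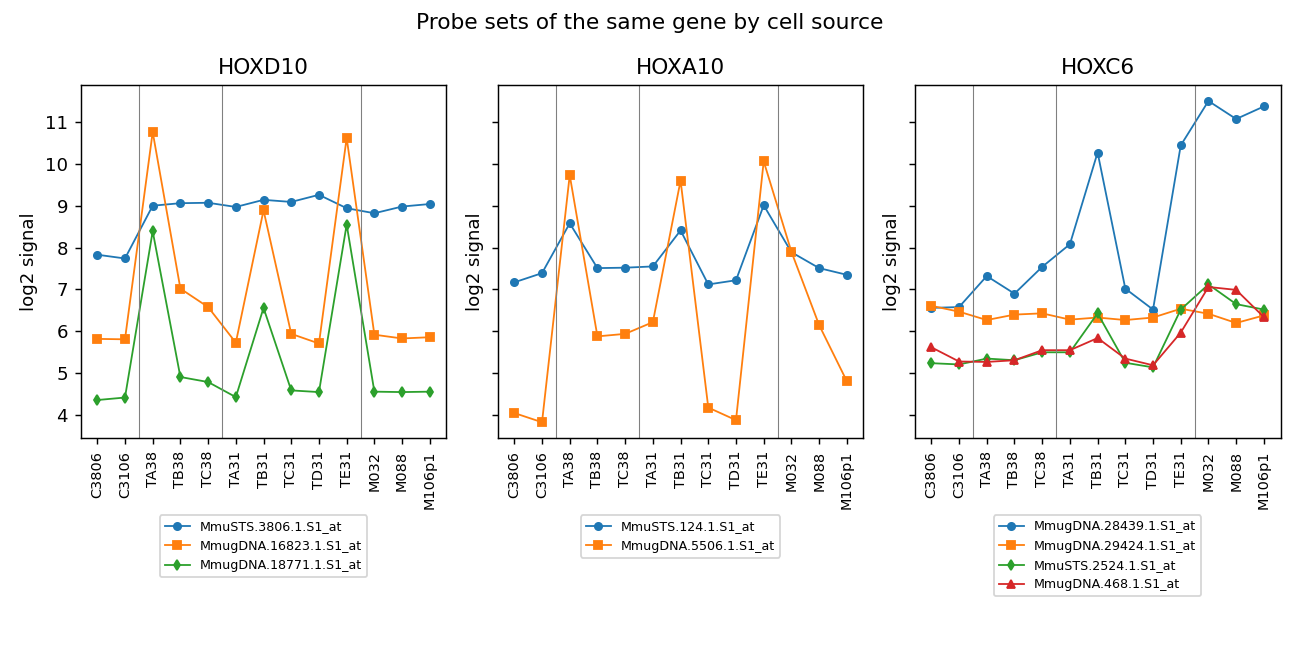
Mean log2 signal (y axis) of each probe set of HOXD10, HOXA10 and HOXC6 in the 13 cell sources (x axis), with grey lines between ESC lines, C3806 teratoma cultures, C3106 teratoma cultures and skin. For HOXD10 the brightest probe set separates ESC lines from all fibroblasts, whereas the other probe sets peak in TA38, TB31 and TE31, and for HOXC6 the second probe set stays flat.

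Genes that act around the HOX system were counted in the same tests. Of 14 measured genes of retinoic acid handling, a signal that induces HOX genes, ESCs against teratoma cultures had 1 higher and 3 lower, beside 6.28% and 8.18% of all genes. CYP26A1, which degrades retinoic acid, was higher by 5.40, while ALDH1A3 and RDH10, enzymes of its synthesis, and the receptor RARB were lower by −3.22, −2.66 and −1.60. Against skin 1 was higher and 2 lower, beside 10.2% and 9.77% of all genes, with CYP26A1 at 5.41, ALDH1A3 at −5.07 and RDH10 at −2.17. None was called in teratoma cultures against skin. The median difference over the 14 genes was −0.12, −0.22 and 0.10 in the 3 comparisons, against 0.02, 0.03 and 0.01 over all genes.

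Of 19 Polycomb and trithorax genes, which keep HOX clusters silent or active, 3 were higher and 1 lower in ESCs against teratoma cultures, JARID2 by 3.10, KMT2D by 1.08 and CBX7 by 1.01, and PHC2 by −2.06. Against skin JARID2 (3.29) was higher and PHC2 (−2.07) lower. Of all genes, 6.28% were called higher and 8.18% lower against teratoma cultures, and 10.2% higher and 9.77% lower against skin. The median over the 19 genes was 0.26 against teratoma cultures and 0.40 against skin, beside 0.02 and 0.03 over all genes. Of 11 upstream signals and factors, WNT8A (1.23) was higher and GATA6 (−4.14), WNT5A (−2.85) and EGR2 (−2.24) lower in ESCs against teratoma cultures. Against skin BMP4 (1.64) and WNT8A (1.18) were higher and GATA6 (−3.61) and WNT5A (−3.46) lower. BMP4, a patterning ligand, was the only one of these genes called in teratoma cultures against skin, by 2.03 (SE 0.44, adjusted p = 0.0387). Of 6 other TALE-related genes, PBXIP1, IRX5 and IRX3 were lower in ESCs by −2.82, −2.43 and −1.59 against teratoma cultures and by −3.46, −3.11 and −2.05 against skin. Medians in ESCs against teratoma cultures and against skin were 0.08 and 0.17 over the 11 upstream genes and −0.93 and −1.65 over the 6 TALE-related genes, beside the same 0.02 and 0.03.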

How the data were processed

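Gene expression was measured on 39 single-colour oligonucleotide arrays. The authors deposited log2 signals for 52865 probe sets, made with GCOS and RMA per the submitters' processing notes, and the sources used here give neither versions nor settings. Names came from the platform annotation (24956 probe sets with 1 gene, 14132 genes), and a gene was represented by its probe set with the highest mean. Chromosomes came from RefSeq (T2T-MMU8v2.0), matched by gene identifier for 32 genes and by symbol for 4. Sequences were not used here.

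In R 4.3.3, limma 3.58.1 was fitted to source means in 5 classes (8 residual degrees of freedom; ESC lines were assumed to vary like the cultures) and to 36 arrays in 13 sources (23 degrees of freedom), with Benjamini-Hochberg adjustment over all genes and two-sided tests. Every one of the 36 genes is named, and values per array or source are given for genes called in the 3 main comparisons and for the 6 with the widest teratoma range. The genes and lists were chosen with earlier results of these data known. Replicate letters were not used to pair arrays in the main fits. Deviations from source means of arrays with the same letter correlated from −0.54 to 0.60. Arrays of unlike letters were not compared, so these values do not show whether letters pair arrays. The number of arrays and sources limits precision.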

Additional observations from a re-analysis of the deposited data

Results flagged for a closer look

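Within the 5 C3106 teratoma cultures and within all 8 teratoma cultures, a mean was singled out when its gap to the nearest other culture was too large a share of the whole range (Dixon's 95% limit). Of 72 such sets 10 had one. Chance gives about 1 in 20 for independent sets. These sets share cultures, since the 5 lie within the 8, so the count cannot be read against that share. Among all 8 cultures TA38 stood apart for HOXA13 (6.50) and HOXD13 (10.04), TB31 for HOXA5 (8.84) and HOXC10 (7.36), and TE31 for HOXC12 (5.41), HOXD1 (6.76) and, as the lowest, PBX3 (9.22). For HOXC12 the nearest culture had 5.19, within a range of 0.36 log2 units. Among the C3106 cultures TB31 stood apart for HOXA2 (5.92), and TE31 for HOXD13 (7.38) and CDX1 (5.48), the last within a range of 0.19 log2 units over all 8 cultures.

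The arrays left out also carried signal. On the array labelled C3806c, HOXA3 (7.03), HOXA9 (5.97), MEIS1 (8.34), MEIS2 (8.77) and PKNOX2 (9.61) were at least 1 log2 unit above the other C3806 arrays, and TGIF1 (9.46) was below them. On the array labelled TB31c, HOXB6 (9.22) and HOXB7 (8.49) were above the other TB31 arrays and within the range of the skin arrays, while HOXA3 (6.80), HOXA9 (5.94) and HOXC10 (5.91) were below.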

How the results depend on the processing

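Called differences of single genes gave 5434 values under alternatives, of which 5326 kept direction and call, 94 kept direction without the call and 14 changed sign. All 14 came from the second-brightest probe set: HOXB6 in ESCs against skin (0.07), teratoma against skin (0.04), TB38 (0.22), TC38 (0.11), TC31 (0.01) and TE31 (0.12) against skin; HOXC6 in the same order for ESCs (0.20), teratoma (0.03), TB38 (0.07), TC38 (0.09) and TD31 (0.00); and HOXA3 in TB31 (−0.02), TD31 (0.00) and TE31 (0.01). That choice gave 6 called genes in ESCs against skin and 2 in teratoma against skin. All 39 arrays gave 2 in teratoma against skin and 4 in TB31 against skin. Without a fold limit the counts were 23 in TA38, 20 in TB38, 19 in TC38, 18 in TA31, 15 in TB31, 20 in TC31, 20 in TD31 and 18 in TE31 against skin, 19 among C3806 cultures, 23 among C3106 cultures, 21 among skin cultures and 1 in C3806 against C3106; fewer criteria give more calls by construction. The cause of the other changes was not tested. Leaving out sources gave 6 to 6 genes in ESCs against teratoma, 9 to 13 in ESCs against skin and 3 to 5 in teratoma against skin. The replicate block gave 8 called genes among skin cultures, where HOXB7 fell to 0.97, and changed no other count.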

Other observations

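The array labelled M106p1f had none of the 36 genes at least 1 log2 unit above the other M106p1 arrays and 7 below them. These were HOXA5 (6.05), HOXA9 (4.22), HOXB6 (7.36), HOXB7 (6.08), HOXC6 (6.49), MEIS1 (6.60) and MEIS2 (7.24). For HOXB6, HOXB7 and HOXC6 the kept skin arrays read no lower than 8.90, 8.22 and 11, while teratoma arrays ran over 6.57 to 7.44, 5.95 to 6.41 and 6.38 to 10.62, ranges that hold the values of this array.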
